A study of Mus musculus with 30 samples.

Results

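The genes described here encode subunits of the receptors for glutamate and for GABA, the main excitatory and inhibitory transmitters of the brain. They were chosen by gene symbol, 34 in all, and 32 had a probe set of their own on the array. Each gene was read through 1 probe set, the one with the highest mean log2 signal over all 30 arrays. The brightest probe set of 28 genes passed the filter on dim probe sets, out of 12388 genes that passed and 18193 genes with a probe set of their own in the whole series. The 28 genes were 4 of 4 AMPA, 3 of 6 NMDA, 5 of 5 kainate and 1 of 1 delta receptor genes, 6 of 6 metabotropic glutamate receptor genes, 8 of 10 GABA-A genes and 1 of 2 GABA-B genes. Grin1 and Gabbr2, which encode obligatory subunits of the NMDA and GABA-B receptors, were not analysed here.

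AMPA, NMDA and kainate receptors are cation channels opened by glutamate, and the subunits present set their kinetics and calcium permeability. Metabotropic glutamate receptors act through G proteins, and most of those measured here dampen transmitter release or adenylyl cyclase. GABA-A receptors are chloride channels that combine alpha, beta and gamma subunits, GABA-B receptors act through G proteins, and in newborn hypothalamic neurons GABA can depolarise the cell because intracellular chloride is high.

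Newborn female C57BL/6J mice were injected under the skin on the day of birth, and the whole hypothalamus of each mouse was hybridised to its own Affymetrix mouse genome array. The EB groups received 7.5 μg of estradiol benzoate (EB), an esterified estrogen, in peanut oil, and the vehicle groups received the oil. The study asked which genes respond to estrogen at the age when the brain differentiates between the sexes. Tissue was taken at 1, 3, 6, 12 or 24 h, which gave 10 groups of 3 arrays, all of one strain and with no altered gene. The sources used here do not say which mice shared a litter, and time after injection, age and time of day cannot be told apart.

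The deposited values are signal intensities on a linear scale, with array medians between 28 and 66.9. Medians of the 12 h arrays were 52.9 or more and those of the other arrays 44.1 or less, so the brightness of the 12 h arrays and the 12 h time cannot be told apart. Arrays were therefore brought to a common median of 41.3, the average over the 30 arrays, and every level below is such a scaled signal, which is compared between arrays within a probe set and never between probe sets. Of 19 hypothalamic marker genes 18 passed the filter, among them the transcription factor genes Otp and Sim1, while 0 of 7 pituitary markers with a probe set did. The summed pituitary signal was nevertheless 139 on EB 3 h replicate 3, 221 and 194 on EB 12 h replicates 1 and 2, 252 on EB 24 h replicate 3 and 156 on vehicle 12 h replicate 2, against 22.3 to 60.3 on the other 25 arrays. Leaving out any 1 of these 5 arrays gave 0 subunit genes called for EB at each time, and Gabrb2 was still called for an EB difference that varied with time. Each such fit kept the others of these arrays, so the part of pituitary signal in the subunit values was not tested. The summed signal of 8 telencephalic markers with a probe set was 2814 on the array of vehicle 6 h replicate 2 and between 724 and 1125 on the other 29 arrays. Without that array 0 subunit genes were called for EB at 6 h, 20 for time and 1, Gabrb2, for an EB difference that varied with time (adjusted p = 0.022). The summed signal of 24 leptomeningeal markers was 1885 to 6741 on EB 24 h arrays and 11399 to 13731 on vehicle 24 h arrays, with 21 of the 24 called lower. All 7 of 7 thalamic markers passed the filter, and their summed signal differed between arrays of a group in both treatments. It was 1272, 2212 and 1174 on EB 1 h arrays, 774, 1713 and 905 on EB 3 h arrays and 1186, 708 and 1409 on vehicle 3 h arrays. The part of thalamic signal in the subunit values was not tested. In RNA from whole tissue, fewer cells of a type and less RNA per cell cannot be told apart.

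None of the 28 subunit genes passed the test of EB against vehicle at a single time. The test was limma, a linear model fitted to all arrays, and a gene was called at an adjusted p under 0.05 over the 27022 probe sets kept. At 1 h 0 of 28 were called, against 0.0037% of all probe sets, and 3 had an unadjusted p under 0.05, all higher in EB. At 3 h 0 of 28 were called, against 0.474% of all probe sets (0.0962% higher and 0.377% lower), and 2 higher and 1 lower had an unadjusted p under 0.05. At 6 h and 12 h 0 of 28 were called, against 0% of all probe sets at each time, with 3 and 2 under 0.05 before adjustment. At 24 h 0 of 28 were called, against 2.78% of all probe sets (0.588% higher and 2.19% lower), and 3 higher and 3 lower had an unadjusted p under 0.05. Averaged over the 5 times 0 of 28 were called, against 0.074% of all probe sets (0.0185% higher and 0.0555% lower), and 2 had an unadjusted p under 0.05. The unadjusted share over all probe sets was 8.63%, 12.8%, 6.01%, 6.56% and 15.7% from 1 h to 24 h and 8.67% for the average. A fit to only the 6 arrays of each time, array weights, quantile normalization and the other settings tried also called 0 of 28 at each time, with 1 exception at 3 h given with Gabrb2.

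The sizes of the differences were small. The median log2 fold change, EB minus vehicle, of the 28 genes was 0.07, 0.11, 0.06, -0.06 and -0.002 in order of time from 1 h to 24 h. Over all probe sets it was 0.03, 0.05, 0.02, -0.01 and -0.01 at the same times. In the same order of times 21, 24, 18, 9 and 14 of the 28 genes lay above 0, against 56.3%, 59.7%, 54.3%, 48.0% and 47.9% of all probe sets. Of the 27 other probe sets of these genes that passed the filter, 13, 15, 16, 13 and 13 lay above 0 at the same times. On the brightest probe sets the 95% intervals of single genes reached at most from -0.86, for Grin2d at 24 h, to 0.83, for Grin2d at 6 h, so differences of about that size in either direction are not excluded for the noisiest genes.

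**Figure D1:**
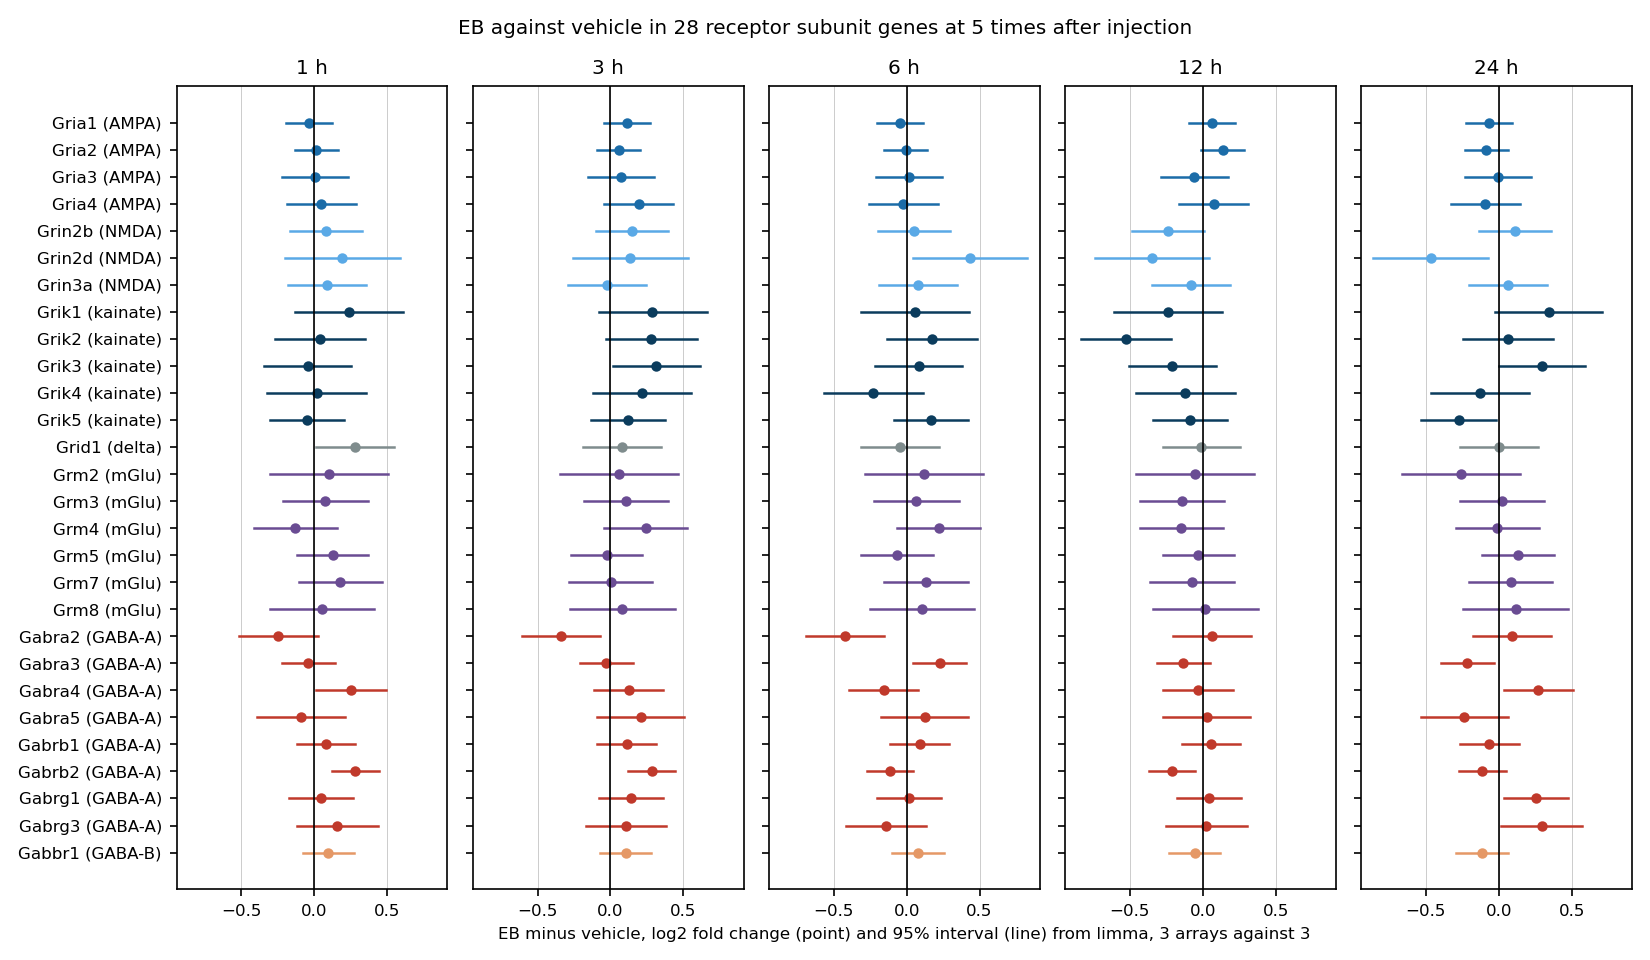
EB minus vehicle at each time for the 28 genes whose brightest probe set passed the filter, with the log2 fold change on the x axis (points) and its 95% interval from limma (lines), 3 arrays against 3, one row per gene with its receptor class. At 3 h 24 of 28 points lie right of 0 and at 12 h 9 of 28, and none of the 140 differences had an adjusted p under 0.05.

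The AMPA receptor genes, whose products carry most fast excitation, had narrow ranges on their brightest probe sets. Gria2, the subunit that makes the channel impermeable to calcium, had scaled signals between 1965 and 2517 on the 15 EB arrays (median 2141) and between 1961 and 2322 on the 15 vehicle arrays (median 2081). Gria1 lay between 637 and 807 in EB and between 665 and 823 in vehicle. The ranges over all times overlapped almost wholly, and at 24 h the 3 EB arrays of Gria2 lay below the 3 vehicle arrays. Over Gria1 to Gria4 and the 5 times every 95% interval of EB minus vehicle on these probe sets lay between -0.33 and 0.43. A dim probe set of Gria4, 1421351_at, was wider. At 24 h it read 31.7, 48.7 and 35.4 in EB and 35.6, 30.4 and 15.3 in vehicle, which overlapped (0.57, interval 0.10 to 1.05, adjusted p = 0.21).

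Among the brightest probe sets of the NMDA receptor genes the widest differences were those of Grin2d, whose product gives slow channels and is prominent early in development. At 6 h Grin2d read 213, 256 and 377 in EB and 217, 194 and 197 in vehicle (log2 fold change 0.44, standard error 0.19, limma adjusted p = 0.79). At 12 h it read 471, 345 and 301 in EB and 499, 416 and 483 in vehicle (-0.35, adjusted p = 0.81). At 24 h it read 209, 207 and 232 in EB and 229, 314 and 370 in vehicle (-0.47, standard error 0.19, adjusted p = 0.21). At each of these times the EB and vehicle arrays overlapped. Without EB 6 h replicate 3, the array at 377, the 6 h value was 0.21.

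Grin2b, the juvenile form of the glutamate-binding NMDA subunit, read 643, 700 and 591 in EB and 804, 679 and 804 in vehicle at 12 h, a log2 fold change of -0.24 (adjusted p = 0.77). A dimmer probe set of Grin2b, 1442370_at, read 344, 464 and 344 in EB and 570, 613 and 602 in vehicle at 12 h, with no overlap (-0.65, adjusted p = 0.36). At 24 h that probe set read 675, 532 and 433 in EB and 468, 384 and 424 in vehicle (0.34, adjusted p = 0.20). The EB difference on 1442370_at varied with time (limma F, adjusted p = 0.034), and on the brighter probe set the same test gave an adjusted p of 0.52. The call on 1442370_at was lost on leaving out any of 10 of the 30 arrays, with adjusted p between 0.0071 and 0.090 over all 30. It was also lost without the 12 h arrays (0.48), without the 24 h arrays (0.24), without scaling (0.095) and without the filter (0.075). Counting all of these, the call was lost in 16 of the alternative fits. Grin3a, an NMDA subunit that lowers calcium entry, had differences between -0.08 and 0.09 on its brightest probe set. At 3 h its other probe sets went opposite ways, with -0.39 on 1458378_at (unadjusted p = 0.00945, adjusted p = 0.21) and 0.23 on 1436575_at (adjusted p = 0.43).

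No kainate receptor gene was called at any time. On the brightest probe sets 5 of 5 were above 0 at 3 h (median 0.28), against 59.7% of all probe sets, and 0 of 5 at 12 h (median -0.21), against 48.0%. The other probe set of Grik2, 1425790_a_at, had the opposite sign at both times, with -0.63 at 3 h (unadjusted p = 0.0325, adjusted p = 0.34) and 0.07 at 12 h (adjusted p = 0.99). Grik2, a channel-forming kainate subunit, read 160, 243 and 159 in EB and 298, 236 and 263 in vehicle at 12 h, the largest difference of that time among the brightest probe sets (-0.53, standard error 0.15, adjusted p = 0.57). EB replicate 2, at 243, lay among the vehicle arrays, and without it the difference was -0.73 (adjusted p = 0.097).

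Grik1, which forms channels of its own, read 383, 253 and 412 in EB and 231, 266 and 357 in vehicle at 3 h (0.29, adjusted p = 0.51). At 24 h it read 368, 460 and 364 in EB and 330, 277 and 333 in vehicle (0.34, adjusted p = 0.37), with every EB array above every vehicle array. Its average over the 5 times was 0.14 (adjusted p = 0.65).

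Grik3, a kainate subunit of low glutamate affinity, read 529, 450 and 379 in EB and 302, 382 and 407 in vehicle at 3 h (0.32, adjusted p = 0.36). At 24 h it read 472, 537 and 577 in EB and 402, 399 and 494 in vehicle (0.30, adjusted p = 0.32), and the groups overlapped at both times. Grik4, an accessory high-affinity subunit, read 57.2, 49.2 and 41.0 in EB and 63.8, 51.3 and 56.6 in vehicle at 6 h (-0.23, adjusted p = 0.91). Grik5, the other high-affinity subunit, read 356, 342 and 370 in EB and 483, 373 and 444 in vehicle at 24 h, where the groups did not overlap (-0.28, unadjusted p = 0.034, adjusted p = 0.26).

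Grid1 encodes a delta receptor, a synaptic organiser rather than a glutamate-gated channel. At 1 h it read 182, 157 and 149 in EB and 141, 130 and 130 in vehicle (0.28, standard error 0.13, adjusted p = 0.57). All EB arrays lay above all vehicle arrays at 1 h, and the groups overlapped at the other times. The other probe set of Grid1, 1421569_at, had the opposite sign at 1 h (-0.255, adjusted p = 0.84).

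The 6 metabotropic receptor genes had EB minus vehicle between -0.26 and 0.24 at every time, and 0 of 6 had an unadjusted p under 0.05 at any time. Grm5, the receptor coupled to phospholipase C, read 1092, 1109 and 1109 in EB and 1029, 961 and 1044 in vehicle at 1 h (0.13, adjusted p = 0.80). Grm7, a presynaptic receptor, read 630, 640 and 655 in EB and 605, 520 and 579 in vehicle at 1 h (0.18, adjusted p = 0.75). In both the EB arrays were the higher ones without overlap, by less than the limma threshold required.

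Of the GABA-A genes Gabrb2, a beta subunit that helps form the GABA-binding site and is needed for assembly, stood out by its course. At 1 h Gabrb2 read 1262, 1196 and 1282 in EB and 1099, 970 and 1013 in vehicle. At 3 h it read 1280, 1135 and 1355 in EB and 1009, 1034 and 1049 in vehicle. All EB arrays lay above all vehicle arrays at both times, with a log2 fold change of 0.28 at each (standard error 0.08, limma adjusted p = 0.30 at 1 h and 0.11 at 3 h). At 6 h it read 925, 978 and 1139 in EB and 1206, 1040 and 1042 in vehicle, which overlapped (-0.115, adjusted p = 0.90). At 12 h it read 1262, 1336 and 1153 in EB and 1405, 1419 and 1511 in vehicle, and at 24 h 1172, 1208 and 1157 in EB and 1287, 1278 and 1264 in vehicle. All EB arrays lay below all vehicle arrays at these later times, with -0.21 at 12 h (adjusted p = 0.69) and -0.115 at 24 h (adjusted p = 0.52).

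The size of the EB difference in Gabrb2 varied between times (limma F = 9.16, adjusted p = 0.021). It was the only one of 28 subunit genes called in this test, against 0.958% of all probe sets, and 5 of 28 had an unadjusted p under 0.05, against 16% of all probe sets. The other 4 were Grin2d (adjusted p = 0.18), Grik2 (0.15), Gabra2 (0.25) and Gabra3 (0.22). The call for Gabrb2 was lost without the 12 h arrays (adjusted p = 0.060), without the 24 h arrays (0.24), without scaling (0.41), without the filter (0.053), with the median of the gene's probe sets (0.16), with the methods' two-factor F on the deposited signals (0.25) and with the unmoderated F on scaled log2 signals (0.055). Leaving out single arrays of 24 h also took its adjusted p to or past the threshold, with 0.063 for vehicle replicate 1, 0.050 for vehicle replicate 2 and 0.064 for EB replicate 1. Without EB 3 h replicate 2, Gabrb2 was called higher in EB at 3 h, the only subunit gene called at a single time when 1 array was left out.

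The other probe sets of Gabrb2 that passed the filter gave like values in part. On 1428203_at EB minus vehicle was 0.21, 0.24, 0.02, -0.16 and -0.34 from 1 h to 24 h, and the difference varied with time (adjusted p = 0.014). At 24 h that probe set read 726, 777 and 720 in EB and 928, 898 and 985 in vehicle, with no overlap, and it was lower in EB by limma (-0.34, standard error 0.08, adjusted p = 0.011). Leaving out the third vehicle array of 24 h (-0.30, adjusted p = 0.063) or the first EB array of 24 h (-0.32, adjusted p = 0.064) ended the 24 h call. The test over times was no longer passed without the first vehicle array of 24 h (0.057), the first EB array of 24 h (0.060) or all 24 h arrays (0.40). Counting these, its call was lost in 5 of the alternative fits. Without scaling the 24 h value was -0.11 (adjusted p = 0.67), where the median of all probe sets at 24 h was 0.22 against -0.01 with scaling. On 1428204_at EB minus vehicle was 0.14, -0.01, 0.02, -0.07 and -0.14 from 1 h to 24 h. On 1428205_x_at it was 0.12, 0.09, -0.09, -0.08 and -0.21 at the same times. The test over times gave adjusted p of 0.60 and 0.35 on these probe sets. Their differences at 1 h and 3 h were smaller than on the brightest probe set, and 1428204_at was below 0 at 3 h. A 5th probe set, 1450319_at, was below the filter.

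The summed signal of pan-neuronal markers was also lower on EB 24 h arrays. Over 16 such genes it was 46861 to 50107 on EB 24 h arrays and 54330 to 56941 on vehicle 24 h arrays, 14 of the 16 were below 0 with a median log2 fold change of -0.18, and 2, Stmn2 (-0.32) and Rtn1 (-0.43), were called lower. The part of this shift, and of the low leptomeningeal signal of the same arrays, in the 24 h differences of the subunit genes was not tested.

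**Figure D2:**
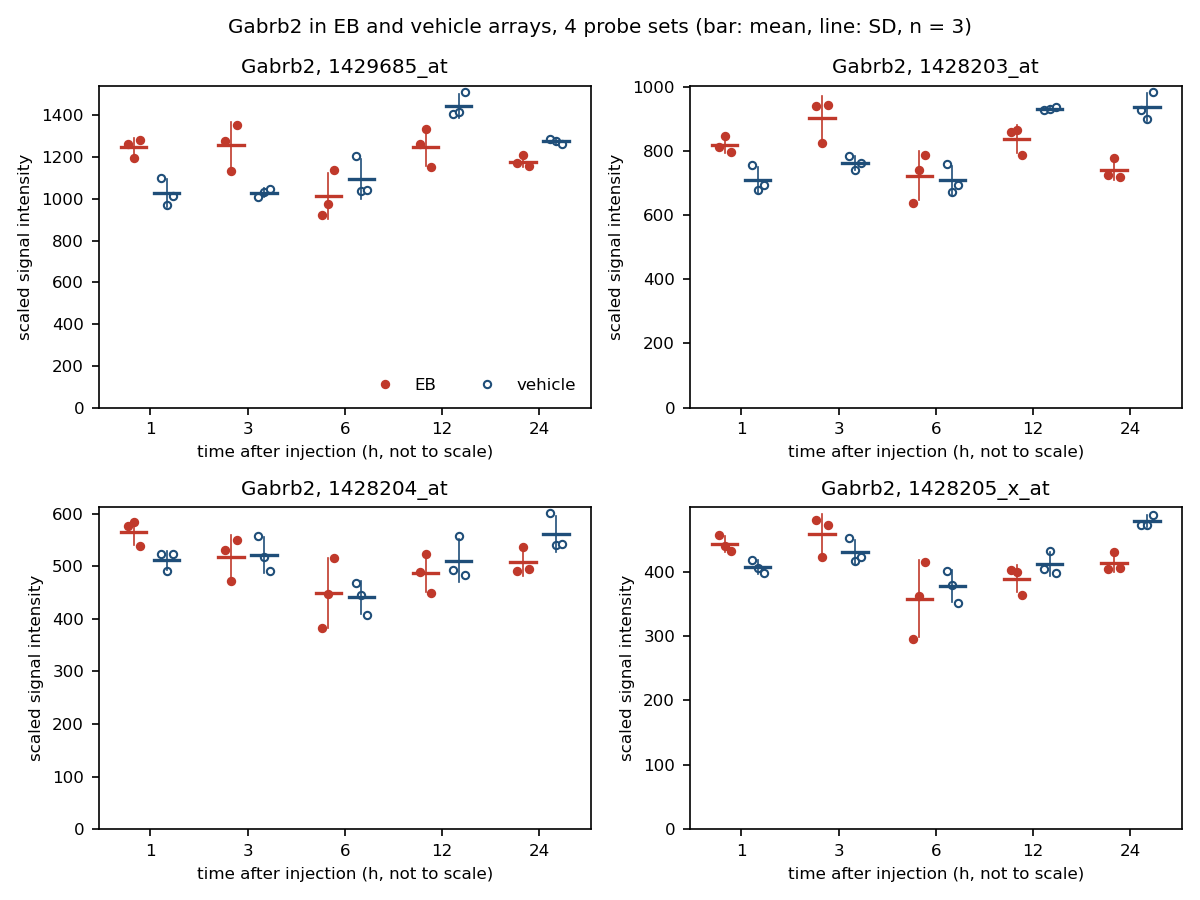
Gabrb2 on its 4 probe sets that passed the filter, with scaled signal intensity on the y axis and time after injection on the x axis (h, not to scale), EB left (filled) and vehicle right (open), points for arrays, bars for means and lines for SD (n = 3). On 1429685_at, the brightest, the EB arrays lie above the vehicle arrays at 1 h and 3 h and below them at 12 h and 24 h.

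The start region of Gabrb2 is shown because Gabrb2 was the subunit gene whose EB difference varied with time. RefSeq lists 3 windows for it, each from 250 bases before to 50 after a transcript start, on the plus strand of GRCm38.p6. The first, chr11:42420190-42420489, holds the letters GGTCA, the half-site of the estrogen response element, once on each strand, in capitals here.
Gabrb2 promoter: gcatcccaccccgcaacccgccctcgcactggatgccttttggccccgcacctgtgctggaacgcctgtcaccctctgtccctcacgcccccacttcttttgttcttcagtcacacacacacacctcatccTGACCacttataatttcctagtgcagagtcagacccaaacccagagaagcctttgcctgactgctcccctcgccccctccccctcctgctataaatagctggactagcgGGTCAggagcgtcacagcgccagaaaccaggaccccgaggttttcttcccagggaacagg
The other 2 windows, chr11:42420524-42420823 and chr11:42420951-42421250, hold no GGTCA on either strand. Over the 32 windows found for 25 of the 34 genes, 7 (21.9%) held GGTCA on either strand, against 40.5% of all 32851 windows. The full element, GGTCA and TGACC with any 3 bases between them, was in 0 of 32, against 0.07% of all windows, and the cyclic AMP response element TGACGTCA in 0 of 32, against 1.79%. The half-site is part of the full element. These matches describe letters in these windows and say nothing of binding.

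Gabra2, an alpha subunit common in the newborn brain, read 204, 262 and 172 in EB and 262, 251 and 282 in vehicle at 3 h on its brightest probe set, 1421738_at (-0.34, standard error 0.13, adjusted p = 0.25). At 6 h it read 205, 175 and 157 in EB and 252, 241 and 222 in vehicle, where the EB arrays were the lower ones without overlap (-0.42, adjusted p = 0.53). Its average over the 5 times was -0.17 (unadjusted p = 0.007, adjusted p = 0.35), the largest of the 28. The probe sets of Gabra2 disagreed. A dimmer one, 1455444_at, read 131, 176 and 163 in EB and 115, 120 and 129 in vehicle at 3 h (0.36, adjusted p = 0.32). At 24 h that probe set read 237, 214 and 189 in EB and 110, 163 and 165 in vehicle, and it was higher in EB by limma (0.57, standard error 0.16, adjusted p = 0.044), with no overlap. On 1421738_at the 24 h difference was 0.09 (adjusted p = 0.81), and on 1443865_at it was 0.29 (adjusted p = 0.40). The call on 1455444_at was lost without scaling (0.068), with quantile normalization (0.055), without the filter (0.072), with only the 6 arrays of 24 h (0.073) and on leaving out any of 8 of the 30 arrays, among them vehicle 24 h replicate 1, the array at 110 (0.37, adjusted p = 0.30).

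**Figure D3:**
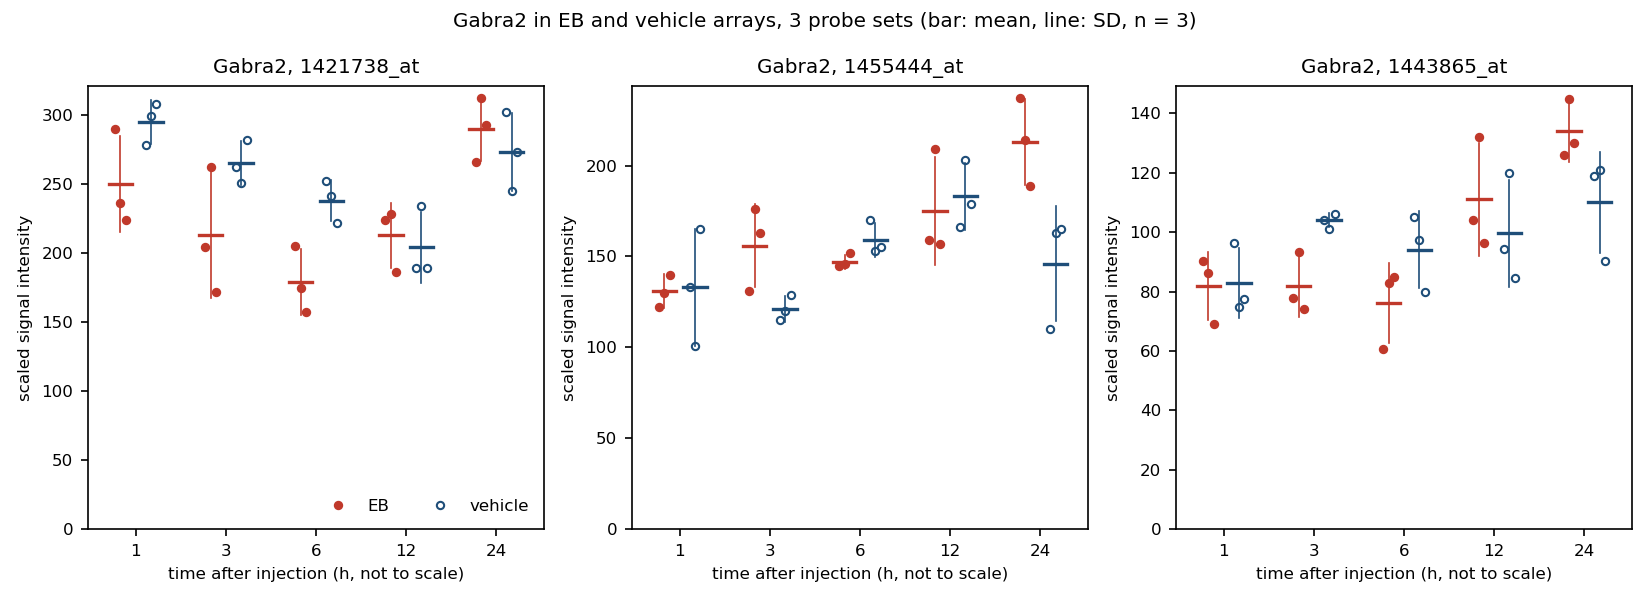
Gabra2 on its 3 probe sets that passed the filter, with scaled signal intensity on the y axis and time after injection on the x axis (h, not to scale), EB left (filled) and vehicle right (open), points for arrays, bars for means and lines for SD (n = 3). At 3 h the EB mean lies below the vehicle mean on 1421738_at and 1443865_at and above it on 1455444_at.

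Gabra3, another alpha subunit of immature neurons, read 515, 609 and 646 in EB and 529, 464 and 516 in vehicle at 6 h (0.23, adjusted p = 0.72). At 24 h it read 572, 557 and 590 in EB and 659, 640 and 701 in vehicle, with no overlap (-0.22, adjusted p = 0.21). On a dim probe set of Gabra3, 1421263_at, EB arrays at 3 h read 29.7, 31.0 and 19.0 and vehicle arrays 40, 55.2 and 49.8 (-0.88, adjusted p = 0.062), and at 6 h EB arrays read 38.9, 34.5 and 35.0 and vehicle arrays 32.6, 20.7 and 23.0 (0.53, adjusted p = 0.76). The difference on that probe set varied with time (adjusted p = 0.045), a call kept in 8 of the 30 fits that left out 1 array.

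Gabra4, an alpha subunit often found outside synapses, read 133, 165 and 142 in EB and 132, 112 and 126 in vehicle at 1 h (0.25, adjusted p = 0.56). On its other probe set, 1429330_at, the 1 h difference was -0.53 (adjusted p = 0.43). On their brightest probe sets the gamma subunit genes Gabrg1 and Gabrg3 were higher on every EB array than on every vehicle array at 24 h and did not pass the test. Gabrg1 read 653, 635 and 676 in EB and 558, 552 and 534 in vehicle (0.26, adjusted p = 0.22). Gabrg3 read 134, 122 and 142 in EB and 112, 121 and 93.6 in vehicle (0.29, adjusted p = 0.28). Their other probe sets did not show this. At 24 h Gabrg1 was at 0.05 on 1427227_at (adjusted p = 0.92), and Gabrg3 at -0.09 on 1444549_at (0.91) and -0.11 on 1445846_at (0.86). Averaged over the 5 times Gabrg1 was 0.10 higher in EB on its brightest probe set (unadjusted p = 0.045, adjusted p = 0.56) and at -0.015 on 1427227_at (adjusted p = 0.97).

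Gabrb1, a beta subunit, and Gabra5, an alpha subunit linked to tonic inhibition, had differences between -0.24 and 0.21 on their brightest probe sets. A dimmer probe set of Gabrb1, 1443205_at, was at 0.28 at 24 h (unadjusted p = 0.034, adjusted p = 0.27). Gabbr1, the GABA-B subunit that binds the transmitter, had scaled signals between 1983 and 2532 on EB arrays and between 1889 and 2531 on vehicle arrays, with differences between -0.12 and 0.11. A dimmer probe set of Gabbr1, 1422051_a_at, had a 3 h difference of -0.51 (adjusted p = 0.077), where the brightest had 0.11.

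Counted over the 28 genes, arrays of the groups did not overlap for 5 genes at 1 h with EB above, against 10.5% of all probe sets, and for 0 with EB below, against 7.15%. At 3 h EB was above in 1 gene, against 8.71%, and below in 0, against 5.3%. At 6 h EB was above in 2 genes, against 5.61%, and below in 1, against 4.37%. At 12 h EB was above in 0 genes, against 5.27%, and below in 1, against 6.07%. At 24 h EB was above in 5 genes, against 9.82%, and below in 6, against 14.3%. With 3 arrays a group, the smallest p of a two-sided exact permutation test is 0.1, so non-overlap alone passes no threshold.

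More subunit genes passed the test for time than any test for EB. Averaged over treatments, 21 of 28 differed between the 5 times by limma's F, against 49.1% of all probe sets. They were 1 of 4 AMPA, 3 of 3 NMDA, 4 of 5 kainate and 1 of 1 delta receptor genes, 5 of 6 metabotropic receptor genes, 7 of 8 GABA-A genes and 0 of 1 GABA-B genes. The genes not called on their brightest probe sets were Gria1, Gria2, Gria4, Grik4, Grm2, Gabra5 and Gabbr1. Dimmer probe sets of Gria1 (1448972_at, adjusted p = 0.018), Gria2 (1453098_at, 0.00044) and Gria4 (1440891_at, 0.0011) were called for time by the same test. So were those of Gabbr1 (1422051_a_at, 0.00043, and 1437188_at, 0.018), while 1434146_at of Gria2 (0.23) and 1421351_at of Gria4 (0.63) were not. Of the 27 other probe sets of the subunit genes 21 were called. The count of called genes on the brightest probe sets was 16 without the 12 h arrays, 19 without the 24 h arrays, 19 with quantile normalization and 28 without scaling. In the marker lists, also read on brightest probe sets, time was called for 2 of 6 telencephalic, 8 of 18 hypothalamic, 13 of 16 pan-neuronal and 24 of 24 leptomeningeal genes. A high share called for time was therefore not particular to the subunit genes.

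The time of the lowest mean depended on the scaling. Of the 21 called genes, 12 had their lowest mean at 6 h, 6 at 1 h and 3 at 3 h, while 19.6% of all called probe sets were lowest at 6 h. Their highest mean was at 12 h in 10, at 24 h in 6 and at 1 h in 5, while 43.6% of all called probe sets were highest at 12 h, a share near that of the subunit genes. With quantile normalization 11 were lowest at 6 h and 10 highest at 12 h, whereas without scaling 13 were lowest at 3 h, 6 at 6 h and 2 at 1 h. Without scaling all 21 were highest at 12 h, where the median of all probe sets stood 0.68 above its mean over times, against 0.05 with scaling. Counting all 28 genes, 13, 6, 2, 24 and 25 lay above their own mean from 1 h to 24 h, against 45.7%, 42.9%, 45.0%, 62.0% and 57.6% of all probe sets.

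**Figure D4:**
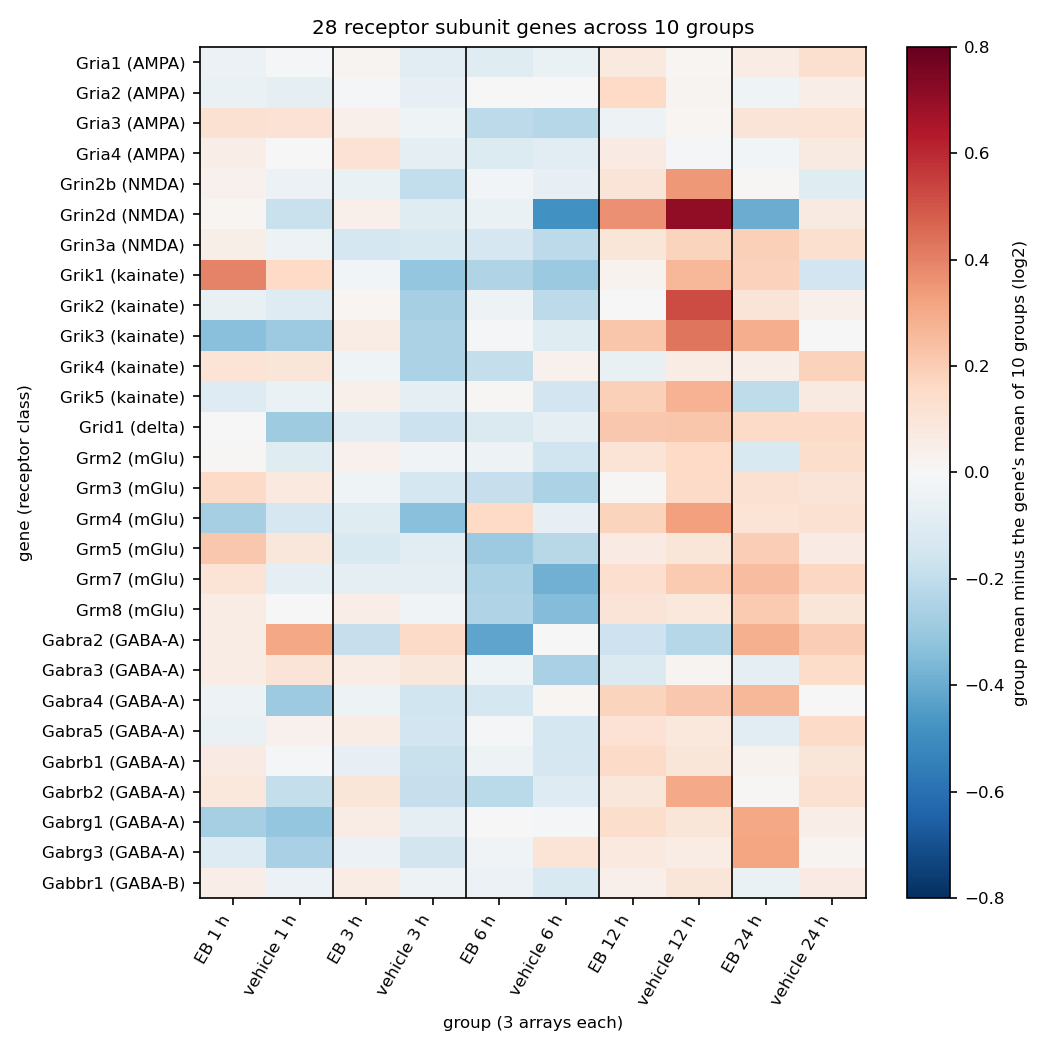
Group means of the 28 genes as a heat map, one row per gene with its receptor class and one column per group of 3 arrays, EB left of vehicle at each time, coloured by log2 scaled signal minus the gene's mean over the 10 groups. The centred group means run from -0.49 to 0.71, within a wider colour scale, and 26 of 28 genes lie below their own mean at 6 h when treatments are averaged.

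Grin2d had the widest course, 0.54 above its own mean at 12 h and 0.27 below it at 6 h in log2 terms, a 1.75-fold range (adjusted p = 0.00018). Without the 12 h arrays its adjusted p was 0.45. Grik3 was lowest at 1 h (-0.31) and highest at 12 h (0.32), a 1.56-fold range (adjusted p = 0.00013). Gabrg1 was lowest at 1 h (-0.29) and highest at 24 h (0.18), a 1.38-fold range (adjusted p = 0.00012).

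Averaged over treatments, 4 further genes were lowest at 6 h. Gabrb2 was at -0.16 at 6 h and 0.19 at 12 h (adjusted p = 0.0001). Grm7 was at -0.32 at 6 h and 0.21 at 24 h (adjusted p = 0.00043), and Grm5 at -0.26 at 6 h and 0.15 at 1 h (adjusted p = 0.00064). Gabra2 was at -0.21 at 6 h and 0.24 at 24 h (adjusted p = 0.00025), with -0.20 at 12 h.

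The centred means of each treatment are given as a description. Gabra2 was at -0.42 in EB and 0.001 in vehicle at 6 h, and its lowest vehicle mean was -0.23 at 12 h. Gabrb2 was at -0.22 in EB and -0.10 in vehicle at 6 h, and its vehicle means at 1 h and 3 h, both -0.19, were lower. Grm5 was at -0.29 in EB and -0.23 in vehicle at 6 h, and Grm7 at -0.25 in EB and -0.39 in vehicle, in each case the lowest time of that treatment. The summed pan-neuronal signal at 6 h was 44289 to 54670 in EB and 45070 to 48275 in vehicle. At 1 h it was 54336 to 60839 in EB and 53394 to 55860 in vehicle, which overlapped the 6 h arrays in EB and not in vehicle, and its part in these means was not tested.

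Grm4, a presynaptic metabotropic receptor, was lowest at 3 h (-0.22) and highest at 12 h (0.25, adjusted p = 0.00071). Gabra4 and Grid1 were lowest at 1 h (-0.17 and -0.14) and highest at 12 h (0.20 and 0.22), with adjusted p of 0.0020 and 0.0024. The call for Gabra4 was lost with the median of its probe sets (adjusted p = 0.063). Of the other 11 called genes Grin2b, Grik2, Grik5 and Gabrb1 were highest at 12 h, Gria3, Grik1, Grm3 and Gabra3 at 1 h, and Grin3a, Grm8 and Gabrg3 at 24 h.

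Between 24 h and 1 h in EB-treated mice, 3 of 28 genes rose and 0 fell, against 10.2% of all probe sets called, 4.7% that rose and 5.51% that fell. Grik3 read 472, 537 and 577 at 24 h and 317, 288 and 433 at 1 h, with no overlap (0.63, standard error 0.15, adjusted p = 0.0055). Gabrg1 read 653, 635 and 676 at 24 h and 500, 379 and 449 at 1 h, again with no overlap (0.57, standard error 0.11, adjusted p = 0.00088). Gabrg3 read 134, 122 and 142 at 24 h and 79.6, 116 and 105 at 1 h, with no overlap (0.42, standard error 0.135, adjusted p = 0.046). The call for Grik3 was lost without EB 1 h replicate 2 (0.51, adjusted p = 0.051). The call for Gabrg3 was lost with quantile normalization (0.064), without the filter (0.067), with the median of its probe sets (0.80) and on leaving out any of 13 of the 30 arrays. The other probe sets of Gabrg3 were at 0.01 (1444549_at) and 0.10 (1445846_at), and that of Gabrg1, 1427227_at, at 0.30 (adjusted p = 0.27), none of them called. Dimmer probe sets of Gabra2 (1443865_at at 0.72 and 1455444_at at 0.70) and of Gabra4 (1429330_at at 0.75) were also called higher at 24 h, where their brightest probe sets were at 0.22 and 0.31 and not called.

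In vehicle-treated mice 3 of 28 genes rose and 0 fell, against 6.73% of all probe sets called, 4.93% that rose and 1.8% that fell. An unadjusted p under 0.05 was found for 24.9% of all probe sets in EB and 22.3% in vehicle. Gabrb2 read 1287, 1278 and 1264 at 24 h and 1099, 970 and 1013 at 1 h, with no overlap (0.31, standard error 0.08, adjusted p = 0.015), and its probe set 1428203_at was called too (0.40, adjusted p = 0.0022). The call on the brightest probe set was lost on leaving out vehicle replicate 2 (0.080) or 3 (0.059) of 1 h, or replicate 1 of 24 h (0.054). Gabrg1 read 558, 552 and 534 at 24 h and 409, 411 and 460 at 1 h (0.36, standard error 0.11, adjusted p = 0.037). Grid1 read 176, 172 and 194 at 24 h and 141, 130 and 130 at 1 h (0.43, standard error 0.13, adjusted p = 0.042). Both had no overlap, and each call was lost with quantile normalization, without the filter, with the median of the probe sets and on leaving out any of 6 of the 30 arrays. On their other probe sets Gabrg1 was at 0.24 (1427227_at, adjusted p = 0.42) and Grid1 went the other way (1421569_at, -0.375, adjusted p = 0.47). In EB that probe set of Grid1 was at -0.56 (adjusted p = 0.22).

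Both day-long comparisons depended on the scaling. Without it 0 of 28 genes were called in EB and 0 in vehicle. In vehicle the median change of all probe sets was then -0.25, against 0.05 with scaling, and Gabrb2 stood at 0.02. With scaling, Gabrg1 was called in both treatments, and in EB the change of Gabrb2 was -0.08 (adjusted p = 0.57). Whether the day-long change of Gabrg1, Gabrg3, Grik3 or Grid1 differed between EB and vehicle was not tested on its own, and the test of the EB difference over all times did not call them.

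**Figure D5:**
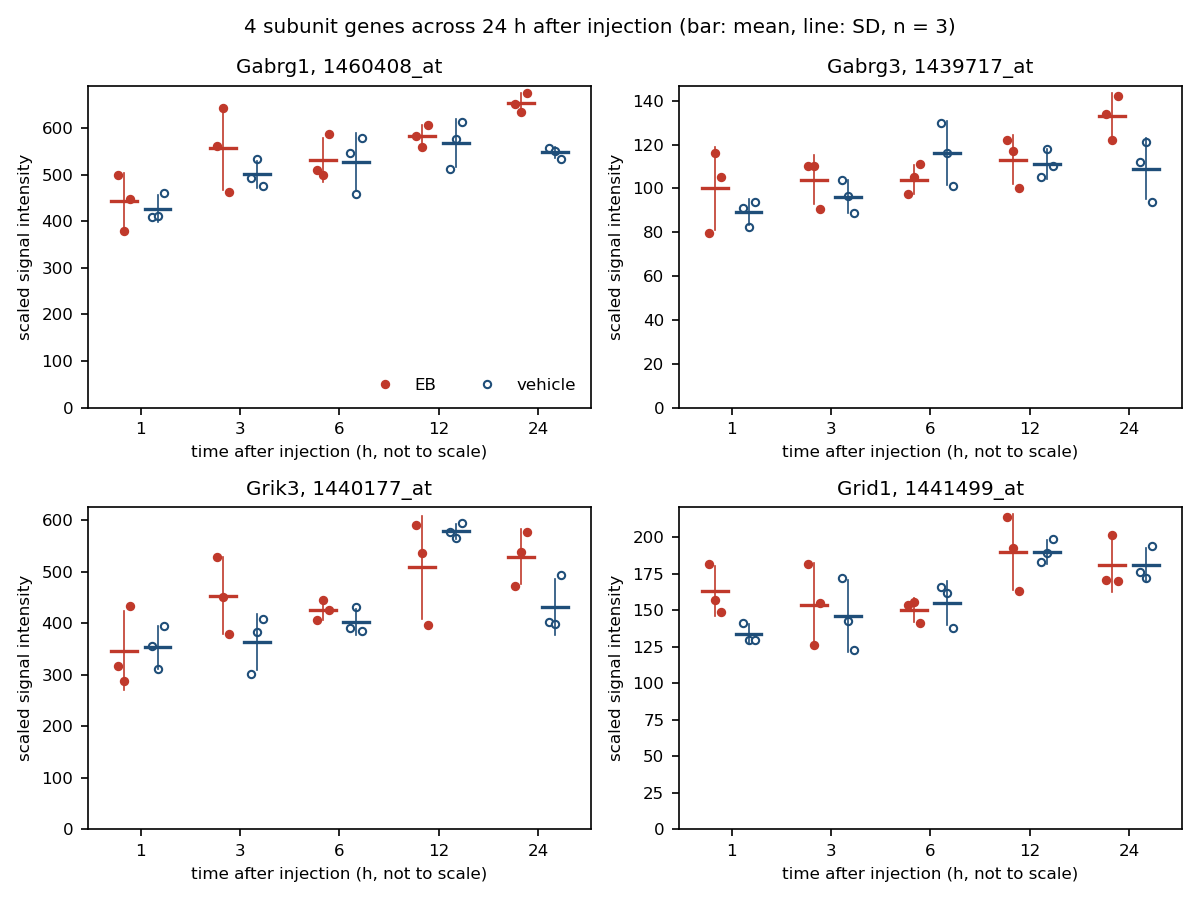
Gabrg1, Gabrg3, Grik3 and Grid1 on their brightest probe sets, with scaled signal intensity on the y axis and time after injection on the x axis (h, not to scale), EB left (filled) and vehicle right (open), points for arrays, bars for means and lines for SD (n = 3). Gabrg1 stands at 655 in EB and 548 in vehicle at 24 h, above its means of 443 in EB and 427 in vehicle at 1 h.

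Genes for proteins that anchor, traffic or modify these receptors were read for comparison, and 37 of 43 passed the filter. With EB, 1 of the 37 was called at 24 h, near the 2.78% of all probe sets, and 0 at the other times. It was Nlgn2, a postsynaptic adhesion protein of inhibitory synapses, which was lower in EB (-0.30, standard error 0.08, adjusted p = 0.036). Time was called for 21 of 37, against 49.1% of all probe sets. Between 24 h and 1 h 3 rose and 3 fell in EB, against 4.7% and 5.51% of all probe sets. Neto1, an auxiliary kainate and NMDA receptor protein, was at 0.46, Lhfpl4, which clusters GABA-A receptors, at 0.34 and the scaffold gene Dlg1 at 0.30. Cnih2, an AMPA receptor auxiliary protein, fell by 0.55, and Nlgn2 and Gabarap, which traffics GABA-A receptors, each fell by 0.29. In vehicle 3 rose and 0 fell, against 4.93% and 1.8%, namely Dlg1 (0.31), Shank3, a postsynaptic scaffold (0.56), and Nsf, a trafficking ATPase (0.32).

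The 4 genes below the filter gave dim signals on every array. Grin2a, the mature form of the NMDA subunit, lay between 0.502 and 9.45 on EB arrays and between 0.426 and 14.5 on vehicle arrays. Grin2c, typical of the cerebellum, lay between 2.74 and 29.8 in EB and between 8.91 and 22.2 in vehicle. Gabre, an epsilon subunit of GABA-A receptors, lay between 7.65 and 26.2 in EB and between 1.81 and 28.4 in vehicle, and Gabrq, the theta subunit, between 0.877 and 9.50 in EB and between 1.42 and 17.7 in vehicle. Of 13 further subunit genes read for comparison 6 had a probe set and 0 passed the filter. With no filter 0 of the 4 were called for EB at any time, and Grin2c was called between 24 h and 1 h in EB.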

How the data were processed

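Hypothalamic RNA of 30 newborn mice was measured on 30 arrays, 3 in each of 10 groups of treatment and time. The authors deposited signal intensities from the MAS5 algorithm on a linear scale, with version and scaling not given in the sources used here, and named GeneSpring and a two-factor analysis in their methods. Groups and replicate numbers came from the sample labels, and 0 columns lacked a sample.

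Arrays were scaled to the mean of the array medians, which were taken over all probe sets with controls included. Scaled signals of the 45037 probe sets that are not controls were then floored at 1. Log2 values of these deposited intensities were fitted with limma 3.58.1 in R 4.3.3, with 1 mean per group over all 30 arrays. Probe sets in the lowest 40% by mean signal were left out, a mean of 21.9, which kept 27022. Benjamini-Hochberg adjustment ran over all of these with a threshold of 0.05. Of the probe sets 34945 had 1 gene symbol in the platform table, 932 several and 9160 none, and genes were named only from those with 1. Symbols of the platform table can be old.

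The members and gene lists were chosen with earlier results of these data known. The text names every subunit gene past the threshold (values for the 10 smallest p where more passed), the 3 largest EB differences at each time and for the average, every gene below the filter and, of other lists, up to 6 genes past the threshold. Other values, such as those of Gria4, Grin3a, Grik5, Grm5, Grm7 and the dimmer probe sets, were chosen after their values were seen. Alternatives were no scaling, quantile normalization, an added pseudocount of 16, other filters, array weights, the replicate number as a block, the median of a gene's probe sets, fits of 6 arrays, the methods' two-factor F on the deposited signals, and leaving out each array. The fit was tested on simulated data. P-values measure the spread between individual mice, and 3 arrays a group limit their precision. Promoter windows came from RefSeq. Figures were drawn with matplotlib 3.10.9 in Python 3.11.15.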

Additional observations from a re-analysis of the deposited data

Results flagged for a closer look

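The EB difference in Gabrb2 varied between the 5 times by the limma test of that difference itself (adjusted p = 0.021). On the brightest probe set EB minus vehicle was 0.28, 0.28, -0.115, -0.21 and -0.115 on the log2 scale from 1 h to 24 h, and EB arrays were higher in 3 of 3 at each of the first 2 times and lower in 3 of 3 at 12 h and 24 h. Over the fits that left out 1 array the adjusted p lay between 0.0043 and 0.064.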

How the results depend on the processing

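With EB against vehicle, 0 subunit genes were called at each time and for the average under every alternative run, except 1 at 3 h without EB 3 h replicate 2, a range of 0 to 1 at 3 h. The count of genes whose EB difference varied with time, 1, was 0 without scaling, without the filter, with the methods' two-factor F, with the unmoderated F, and without the 12 h or the 24 h arrays, which were alternatives chosen after seeing the data, and 2 with array weights (Gabrb2 and Grik2). It lay between 0 and 2 on leaving out 1 array. With the median of probe sets it was 1, with Gabra3 in place of Gabrb2. The time count, 21, lay between 18 and 22 on leaving out 1 array. The count between 24 h and 1 h in EB, 3, was 0 without scaling and 5 with array weights, and 2 to 3 on leaving out 1 array. In vehicle, 3, it was 0 without scaling, and 1 with quantile normalization, without the filter and with the median of probe sets, and 0 to 3 on leaving out 1 array. It was 0 without vehicle 1 h replicate 2, vehicle 1 h replicate 3 or vehicle 24 h replicate 1, and 1 without any other array of those vehicle groups. The median of a gene's probe sets turned 3 differences that did not pass the test, Gabra4 at 1 h (-0.14), Gabra2 at 3 h (0.36) and Gabra2 averaged over times (0.14). That median was taken on each array over log2 levels, so it need not follow the direction of most probe sets. At 3 h the Gabra2 probe sets were at -0.34, -0.35 and 0.36, and at 1 h those of Gabra4 at 0.25 and -0.53. The cause of the other changes was not tested, other than that leaving out arrays leaves fewer samples and leaving out the filter adds probe sets. The number of arrays, 3 a group, limits the precision of every value. Without scaling, the median EB minus vehicle of all probe sets was -0.07, -0.20, 0.07, -0.15 and 0.22 from 1 h to 24 h.

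Groups share replicate numbers in the labels. Correlations between the deviations of same-numbered EB and vehicle arrays were small (15 pairs, from -0.13 to 0.09, median 0.02, 0 over 0.1). Still, 9 of 15 EB arrays correlated best with their own number, among them every EB array at 1 h and 3 h. The labels do not say what the number stands for, and these correlations cannot decide whether same-numbered arrays shared a litter or a batch. With the replicate number as a block the counts were 0 at each time and for the average, 1 for the variation with time, 21 for time and 3 between 24 h and 1 h in each treatment.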
